A study of Sus scrofa with 12 samples.

Results

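The 10 genes described here encode the postsynaptic apparatus of the neuromuscular junction: the receptor complex and its kinase (LRP4, MUSK), their activators (AGRN, DOK7), the scaffold RAPSN and the muscle acetylcholine receptor subunits CHRNA1, CHRNB1, CHRND, CHRNE and CHRNG. They were chosen by name, out of 28210 genes placed on the chromosomes of the pig assembly Sscrofa11.1 by RefSeq. All 10 were found in that table. The measurements read for each gene were H3K27ac chromatin loops with an anchor within 1 kb of an end of the gene, and chromatin-bound RNAs on DNA within 5 kb of an end.

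The samples were longissimus muscle of 2-week-old male piglets of the commercial lean breed Large White (LW) and the Chinese local breed Meishan (MS), with no treatment. Each breed had 2 BL-HiChIP libraries, in which contacts between H3K27ac-marked chromatin are joined by a bridge linker, and 2 GRID-seq libraries, in which RNA is linked to the DNA it lies on. They are called LW 1, LW 2, MS 1 and MS 2 below. Whether the libraries of a breed came from separate animals was not clear from the sources used here, so the spread between them may be technical.

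At the junction, agrin released by the motor nerve binds LRP4 on the muscle fibre, which activates the kinase MuSK. DOK7 binds MuSK from inside the fibre and sustains its activity, and rapsyn then anchors acetylcholine receptors beneath the nerve ending. The fetal receptor carries a gamma subunit, in place of which the adult receptor carries epsilon. Nuclei beneath the synapse transcribe these genes more strongly than the other nuclei of the fibre.

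The loop lists held 33353 to 57028 loops per BL-HiChIP library, fewest in MS 2. A loop's strength is given as −log10 of its false discovery rate (FDR), and a gene's loop score as the sum of the strengths of its loops. An anchor is said to be at a gene end when it lies within 1 kb of it, so that 1 anchor can be at the ends of several genes. All 12 muscle fibre markers had a loop in all 4 libraries, and their scores summed to 781 in LW 1, 1954 in LW 2, 837 in MS 1 and 1553 in MS 2. Of 14 motor nerve terminal markers, 4 had a loop in any library, with summed scores of 17.5 to 33.1 in LW and 15.3 to 30.6 in MS, and CHAT, SLC18A3, SLC5A7, MNX1 and ISL1 were at 0 throughout. Of 7 Schwann cell markers, 3 had a loop, with summed scores of 44.2 to 79.1 in LW and 52.3 to 70.7 in MS, and SOX10 and MAG were at 0. In this bulk tissue, fewer cells of a type and less signal per cell cannot be told apart.

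All 10 junction genes had a loop in at least 1 library, and 7 of 10 had one in all 4. Over all genes in the table, 54.7% had a loop in any library and 27.03% in all 4, and over protein-coding genes 62.6% and 31.7%. The median of the mean score was 10.8 for the 10 genes, 0.783 for all genes and 1.89 for protein-coding genes. It was 109 for the muscle fibre markers. By score, the junction genes therefore sat above the middle of the gene table and below the contractile genes, and the bars by gene list show the shares of genes with a loop.

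**Figure D1:**
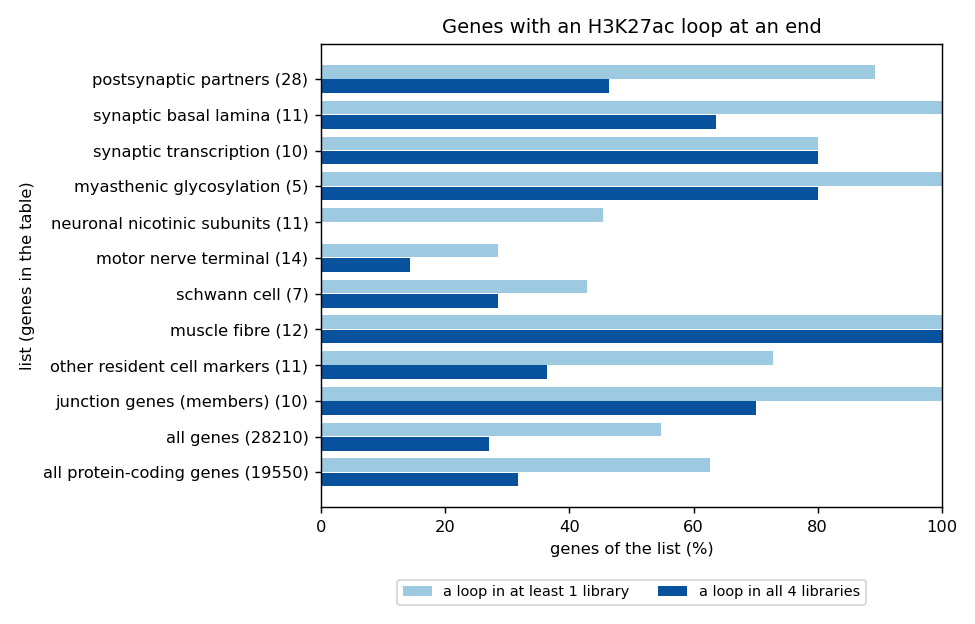
Share of the genes of each list (percent, horizontal axis) that had an H3K27ac loop at either end in 1 or more libraries (light bars) and in all 4 BL-HiChIP libraries (dark bars), with the number of genes in brackets. All 10 junction genes had a loop and 70.0% had one in every library, against 54.7% and 27.03% of all genes.

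In total, 79 distinct loops touched the 10 genes, of which 53 were called in 1 library, 21 in 2, 3 in 3 and 2 in all 4. The share called in 1 library was 67.1%, beside 65.9% for the 59861 loops at any gene end. The bins are 5 kb wide, and when each anchor was allowed to shift by 1 bin, 22 loops remained in a single library and 19 had a counterpart in all 4. Those 19 belonged to 4 genes, MUSK, CHRNB1, DOK7 and LRP4. In 7 genes every loop was at the same end, although which end is the start of transcription was not available here. The longest loop spanned 290 kb and the median 55.0 kb, beside 60.0 kb for all loops at gene ends.

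**Figure D2:**
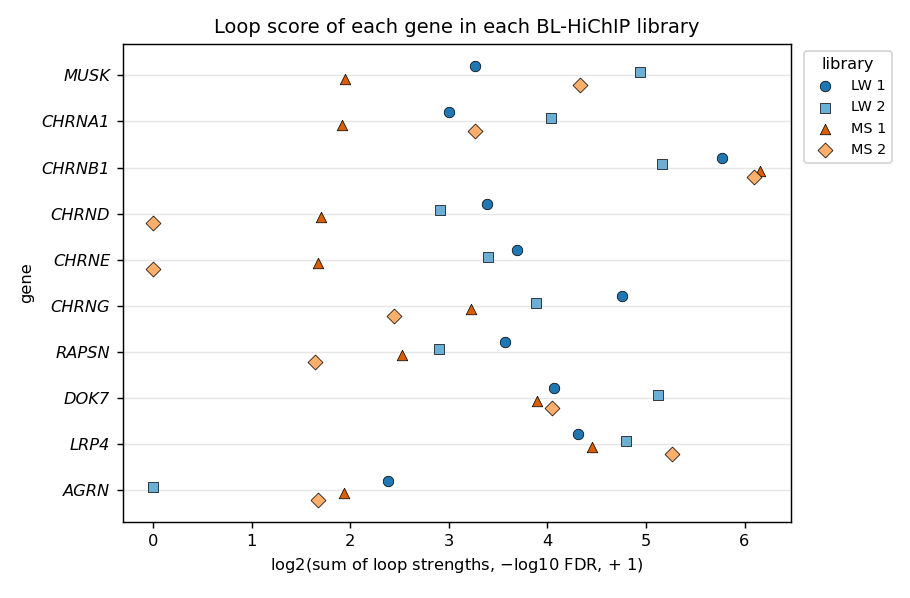
Loop score of each of the 10 genes in each library, as log2 of the summed −log10 FDR plus 1 (horizontal axis), with 1 symbol per BL-HiChIP library. CHRNB1 had the highest scores in all 4 libraries, and CHRND and CHRNE were at 0 in MS 2.

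AGRN (chr6:63366017-63398311), which encodes the nerve and muscle proteoglycan that starts the pathway, had the lowest mean score of the group. Its loop score was 4.20 in LW 1, 0 in LW 2, 2.82 in MS 1 and 2.19 in MS 2. The breeds overlapped. It had 2 loops, a 25.0 kb loop to an end of PERM1 called in LW 1 and MS 2, and a 5 kb loop into its own body called in LW 1 and MS 1. Its anchor was also at an end of ISG15, so these loops cannot be assigned to AGRN alone. Neither loop passed an FDR of 0.001 in any library.

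LRP4 (chr2:15616137-15672876), the agrin receptor, scored 18.9, 26.9, 20.9 and 37.3 in LW 1, LW 2, MS 1 and MS 2. The breeds overlapped, with the highest value in MS 2. All 10 of its loops left its low-coordinate end. One of them reached 200 kb into the body of C2H11orf49 and was called in every library, with strengths of 15.1, 13.7, 9.83 and 4.72 in the same order. It was among 2 of the 79 loops that all libraries shared. A 5 kb loop into the gene itself was called in LW 1, LW 2 and MS 2 at strengths of 3.83, 6.15 and 2.79. Further out, a 235 kb loop to an end of PACSIN3, which encodes an endocytic adaptor, was called at 2.43 in LW 2 and 6.85 in MS 2, and the 290 kb loop into NR1H3 at 6.83 in MS 2.

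MUSK (chr1:251650151-251758538), the receptor tyrosine kinase that LRP4 activates, scored 8.60 in LW 1, 29.7 in LW 2, 2.86 in MS 1 and 19.2 in MS 2. The values of library 2 exceeded those of library 1 in both breeds, so the breeds overlapped. Its strongest loop ran 125 kb across the gene, from the low-coordinate end to a bin past the other end, at a strength of 18.7 in LW 2 and 12.6 in MS 2. In LW 1 and MS 1 the corresponding contact was called 1 bin away, at 6.50 over 120 kb and 2.86 over 130 kb. The far anchor lay in the body of the long noncoding RNA gene LOC110256901, which also spans MUSK itself. A 60.0 kb loop to the middle of MUSK was called in 3 libraries, at 2.10 in LW 1, 2.25 in LW 2 and 3.38 in MS 2.

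DOK7 (chr8:2089645-2119076), the adaptor that sustains MuSK activity, had 2 loops in every library and scored 15.8, 33.8, 13.9 and 15.6 in LW 1, LW 2, MS 1 and MS 2. Both LW values lay above both MS values, but LW 1 and MS 2 were nearly equal. Its strongest loop stayed within the gene, 20 kb from the low-coordinate end, at 21.2 in LW 2 and 10.6 in MS 1. A loop of 15.0 kb to the same far bin was called at 11.4 in MS 2. In LW 1 the strongest loop went the other way, 75.0 kb into RGS12, at 8.60. The main anchor was also at an end of HGFAC.

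RAPSN (chr2:15166968-15181011), the receptor scaffold, lay 435 kb from LRP4 on the same chromosome. It scored 10.8, 6.44, 4.76 and 2.11 in LW 1, LW 2, MS 1 and MS 2, with both LW values above both MS values. None of its 9 loops was called in the same bins in a second library, and none exceeded the strength of 4.30 of a 20 kb loop to an end of PSMC3, a proteasome subunit gene, in LW 2. The other far anchors lay at CELF1, PTPMT1, SLC39A13, and KBTBD4 with NDUFS3, or within RAPSN. No loop joined RAPSN and LRP4.

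**Figure D3:**
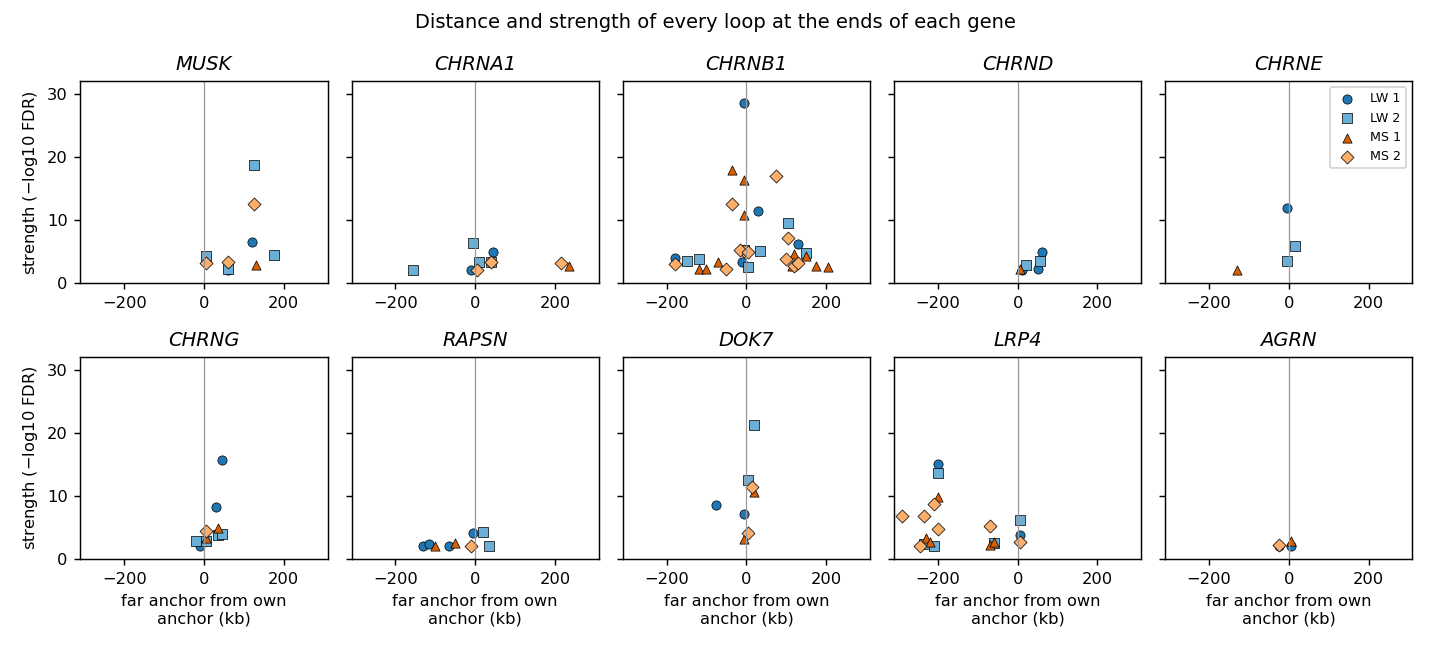
Every loop at an end of each gene, with the distance of the far anchor from the gene's own anchor in kb (horizontal axis, negative toward lower coordinates) against strength as −log10 FDR (vertical axis), and 1 symbol per BL-HiChIP library. LRP4 contacts lay near 200 kb on the low side in all libraries, MUSK contacts near 125 kb on the high side, and RAPSN and AGRN had only weak loops.

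CHRNB1 (chr12:52749422-52774642), the beta subunit gene, scored highest of the 10, at 53.5 in LW 1, 34.8 in LW 2, 70.5 in MS 1 and 67.3 in MS 2. Its mean score ranked 904 among the 15431 genes with a loop. Both MS values lay above both LW values. Its 24 loops all used anchors that were also at an end of another gene: FGF11 and TMEM102 on the low side, and ZBTB4, SLC35G6 or POLR2A, the largest subunit of RNA polymerase II, on the high side. A 5 kb loop to an end of FGF11 was called in all 4 libraries, at 28.5, 5.36, 16.4 and 5.16. A 35.0 kb loop across the gene, between the FGF11 and POLR2A sides, was called at 18.0 in MS 1 and 12.6 in MS 2. Its LW counterparts, 1 bin away, were a 30.0 kb loop at 11.5 in LW 1 and a 35.0 kb loop at 5.18 in LW 2. Loops to TNFSF12 and TNFSF13 reached 16.9 in MS 2.

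The genes whose normalized loop scores were nearest to those of CHRNB1 over the 4 libraries, by Euclidean distance of log2 values, were LOC110256513 (0.232), IGF1R (0.345), the receptor of insulin-like growth factor, and EIF4A1 (0.415), a translation initiation factor. EIF4A1 lies on the same chromosome and is itself at a far anchor of CHRNB1 loops.

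CHRNA1 (chr15:80673072-80692256), the alpha subunit gene that contributes the main part of the acetylcholine binding sites, scored 7.00, 15.4, 2.78 and 8.60 in LW 1, LW 2, MS 1 and MS 2. As for MUSK, library 2 was above library 1 in both breeds and the breeds overlapped. All 9 loops left its high-coordinate end. The strongest was a 5 kb loop into the gene in LW 2, at 6.40. A 40.0 kb loop to an end of CHN1, which encodes a Rac GTPase-activating protein, was called at 3.46 in LW 2 and 3.31 in MS 2, and a loop 1 bin further at 4.89 in LW 1. In MS 1 the only loop went 235 kb to the other end of CHN1, at 2.78.

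CHRND (chr15:133040310-133047839) and CHRNG (chr15:133051668-133059935), the delta and fetal gamma subunit genes, are neighbours 3.83 kb apart. CHRND scored 9.42 in LW 1, 6.51 in LW 2, 2.26 in MS 1 and 0 in MS 2. CHRNG scored 26.01, 13.8, 8.34 and 4.43 in the same order. Both LW values lay above both MS values for each gene. Anchors at ends of the 2 genes were joined by 2 loops, which enter both scores. They were a 10 kb loop at 2.11 in LW 1 and a 20 kb loop at 2.94 in LW 2. MS libraries had no loop called between ends of CHRND and CHRNG. All 6 CHRND loops used anchors that were also at an end of PRSS56, so they cannot be assigned to CHRND alone. Of the 7 CHRNG loops, 4 used anchors that were also at an end of EIF4E2, so they cannot be assigned to CHRNG alone. They included the 20 kb loop and every CHRNG loop called in MS.

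A shared far anchor lay past the neighbouring gene EIF4E2, at chr15:133095001-133100000, in a bin with no gene in the table. It was reached from CHRNG over 45.0 kb at 15.7 in LW 1 and 4.01 in LW 2, the strongest CHRNG loop. From CHRND it was reached at 4.99 over 60.0 kb in LW 1 and 3.56 over 55.0 kb in LW 2. In MS 1 it was reached at 5.02 over 35.0 kb from a bin at the ends of CHRNG and EIF4E2, and in MS 2 no loop of either gene reached it. A 5 kb loop from a bin at the ends of CHRNG and EIF4E2 to an end of EIF4E2 was called in LW 2, MS 1 and MS 2. Its strengths were 2.96, 3.32 and 4.43.

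CHRNE (chr12:51999504-52016592), the adult epsilon subunit gene, scored 11.9 in LW 1, 9.50 in LW 2, 2.18 in MS 1 and 0 in MS 2. Both LW values lay above both MS values. A 5 kb loop was called at 11.9 in LW 1 and 3.52 in LW 2, a 15.0 kb loop into the gene at 5.98 in LW 2, and a 130 kb loop to an end of RABEP1 at 2.18 in MS 1. RefSeq types the CHRNE entry as a long noncoding RNA, and its anchor was also at an end of LOC110255314. With a window of 5 kb in place of 1 kb, the number of loops rose from 1, 2, 1 and 0 to 8, 6, 5 and 2 in LW 1, LW 2, MS 1 and MS 2.

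Between breeds, 5 of the 10 genes had both LW scores above both MS scores (CHRND, CHRNE, CHRNG, RAPSN and DOK7), beside 21.1% of the 15431 genes with a loop, and CHRNB1 had the reverse order, beside 7.02%. These counts use scores summed here from the deposited loop lists, before normalization, and each LW list held more loops than the MS list of the same number. With 2 libraries against 2, an exact permutation test of a single gene cannot give a p below 0.33.

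The breeds were then compared by limma on log2(score + 1) after quantile normalization across all genes, with the rule used in the study, a log2 fold change beyond 1.5 and an unadjusted p under 0.05. By this rule 436 genes (2.83%) were higher in LW and 386 (2.50%) in MS, so that 53.0% of the called genes were higher in LW, and 76.9% without normalization. CHRND and CHRNE, 2 of the 10, were higher in LW, and none was higher in MS. For CHRND the log2 fold change was 1.90 ± 0.79 (SE, n = 2 per breed), with a Benjamini-Hochberg adjusted p = 0.931 in limma. For CHRNE it was 2.47 ± 0.77 (SE, n = 2 per breed), with an adjusted p = 0.804 in limma. No gene of the table passed an adjusted p of 0.05 (0%), and 822 had an unadjusted p under 0.05.

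CHRND no longer met the rule without LW 1, LW 2 or MS 2, with log2 fold changes of 2.16, 1.86 and 1.26, and CHRNE without LW 1 or LW 2, with 2.90 and 2.23. Both genes were at 0 in MS 2, the library with the fewest loops, and without it CHRNE still met the rule, with a log2 fold change of 2.01. For the remaining 8 genes the log2 fold change ran from -1.10 ± 0.89 for AGRN to 1.14 ± 0.78 for CHRNG (SE, n = 2 per breed), and the median of all 10 was 0.63 beside 0.02 for all genes tested. CHRNB1 stood at -0.87 ± 0.78 and RAPSN at 0.77 ± 0.76, and neither met the rule.

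Among other genes of the junction, the same rule called 2 of 25 tested postsynaptic partners, both higher in LW. DMD, which encodes dystrophin, scored 11.14 and 8.89 in LW, and CRKL, an adaptor that binds phosphorylated DOK7, scored 5.72 and 5.48. Both were at 0 in both MS libraries. The adjusted p in limma was 0.804 for DMD and 0.827 for CRKL. The highest mean scores of this list were those of CRK (62.9) and UTRN (54.1), the adaptor related to CRKL and utrophin.

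None of the 11 synaptic basal lamina genes met the rule, and LAMC1 (60.7) and LAMA4 (37.3), both laminin chains, had the highest mean scores. Of 10 synaptic transcription genes, 8 had a loop in any library and the same 8 in all 4, beside 54.7% and 27.03% of all genes. HDAC9 and DACH2 were at 0 throughout. None of the 8 met the rule, and ETS2 (155) and MYOD1 (152) had the highest mean scores. The 5 glycosylation genes of congenital myasthenia all had a loop in any library, beside 54.7% of all genes. They were led by ALG14 (16.5) and GMPPB (16.3), with none called.

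The neuronal nicotinic receptor subunits, relatives of the muscle subunits, were counted in the same way. Of 11, 5 had a loop in any library and none in all 4, whereas all 5 muscle subunits had one in any library and 3 in all 4, beside 54.7% and 27.03% of all genes. CHRNA9 (6.56) and CHRNA10 (4.20) had the highest mean scores. CHRNA4 was higher in MS by the rule, scoring 3.61 in MS 1, 2.69 in MS 2 and 0 in both LW libraries, and a limma adjusted p of 0.804. Among markers of other cells, the satellite cell gene PAX7 was higher in LW by the rule, at 18.5 and 14.6 in LW and 0 in both MS libraries (limma adjusted p = 0.804). High mean scores were those of TNNT3 (212) and MYOZ1 (165) among muscle fibre markers, VAMP1 (6.40) among nerve terminal markers, PRX (40.4) and PMP22 (13.6) among Schwann cell markers, and COL1A1 (45.9) and PECAM1 (42.5) among those of other resident cells. The part of these cells in the results above was not tested.

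In GRID-seq, the lists held 571, 681, 519 and 649 RNAs in LW 1, LW 2, MS 1 and MS 2. None of the 10 junction genes was listed as an RNA in any library. The listed RNAs had at least 432 to 455 reads each, out of 7172517 to 9943666 reads listed per library, so RNAs below that level would not appear in them. The genes were instead read as DNA targets of other RNAs. The signal given below is a value of the deposited lists, which have no header, read here as the authors' background-corrected signal relative to each RNA's own reads and summed over 1 kb bins. Contacts were listed as runs of at least 15 adjacent bins with a median of 28, so that a run often covers several genes and its bins are not independent.

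All 10 genes had RNA signal in at least 1 library, and 5 had it in all 4 (CHRNB1, CHRND, CHRNG, RAPSN and DOK7), beside 82.6% and 21.6% of all genes. The median of the mean signal was 15.7 for the 10 genes and 6.95 for all genes, and 2.84e+04 for the muscle fibre markers.

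**Figure D4:**
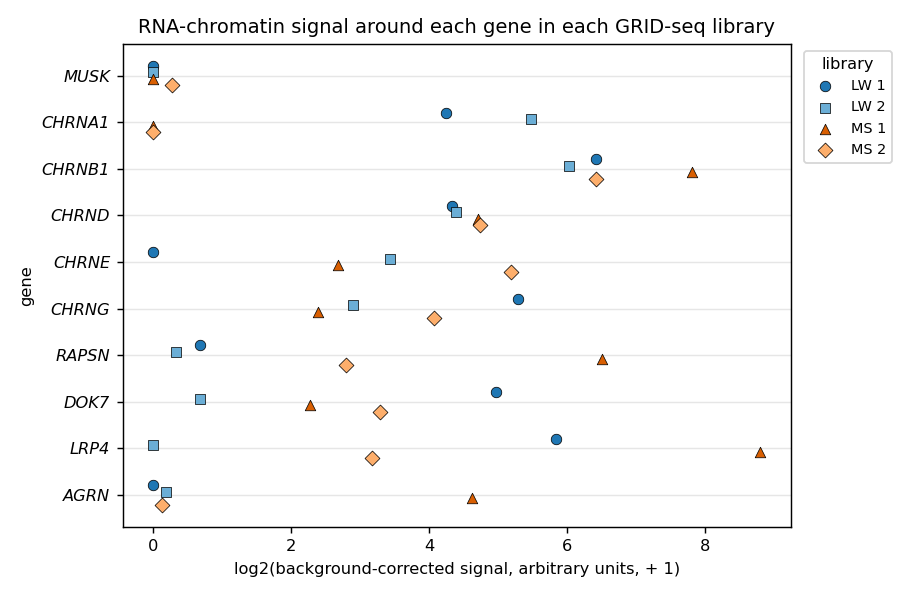
RNA-chromatin signal within 5 kb of the ends of each gene in each GRID-seq library, as log2 of the summed background-corrected signal plus 1 (horizontal axis, arbitrary units), with 1 symbol per library. CHRNA1 had signal in both LW libraries and none in MS, CHRND stayed between 19.1 and 25.8, and the highest single value was that of LRP4 in MS 1.

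Signal at the kinase complex came mostly from single libraries. At LRP4 it was 56.2 in LW 1, 0 in LW 2, 445 in MS 1 and 8.05 in MS 2. The value of MS 1 came from a single RNA, that of CRY2, a clock gene transcribed 913 kb away. At MUSK signal was listed in MS 2 only, at 0.204, in part from ENSSSCG00000048037, which the lists give by its identifier.

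At DOK7 the signal was 30.3, 0.592, 3.84 and 8.75 in LW 1, LW 2, MS 1 and MS 2, led by NEB and ENSSSCG00000048037 in LW 1 and by the transcript Tx.436 in MS 2. At AGRN it was 0, 0.141, 23.7 and 0.0970, and ENSSSCG00000048856 gave 14.1 of that of MS 1. At RAPSN it was 0.604, 0.258, 90.1 and 5.95, and the value of MS 1 came from TEAD1 alone, the RNA of a transcription factor, while CMTM4 (4.05) and TTN (1.90) gave that of MS 2. Both MS values of RAPSN lay above both LW values.

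At CHRNB1 the signal was 85.1, 64.4, 224 and 84.4. It was the only one of the 10 genes at which an RNA was listed in all 4 libraries: ENSSSCG00000048856, transcribed from chromosome 2, at 20.8, 34.5, 31.04 and 29.2. The breeds overlapped for this RNA. The largest contribution was that of ENSSSCG00000029441, transcribed 2416 kb away on the same chromosome, at 63.5 in LW 1 and 156 in MS 1, and it was not listed there in LW 2 or MS 2.

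At CHRNA1 the signal was 18.0 in LW 1 and 43.4 in LW 2, and 0 in both MS libraries. It came from TTN, the titin RNA transcribed 3535 kb away, at 18.0 and 24.0, and from NEB, the nebulin RNA of the same chromosome, at 19.4 in LW 2. CHRNA1 was the only one of the 10 genes past the study's rule for RNA contacts, a log2 fold change beyond 2 and an unadjusted p under 0.05 (limma on log2(signal + 1), adjusted p = 0.17). By that rule 7.49% of 23302 genes were higher in LW and 8.28% higher in MS, and 0% passed an adjusted p of 0.05, with 3676 at an unadjusted p under 0.05.

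CHRND had 19.1, 19.9, 25.1 and 25.8, so both MS values were above both LW values, and CHRNG had 38.1, 6.43, 4.22 and 15.8, with overlap. Since the genes adjoin, the same runs reached both. TTN was listed at both in LW 1, LW 2 and MS 2, and NEB at both in LW 1. CHRND and RAPSN were the 2 genes with both MS signals above both LW signals, beside 20.5% of all genes tested, and CHRNA1 the only one in the reverse order, beside 16.7%. At CHRNE the signal was 0 in LW 1, 9.80 in LW 2, 5.40 in MS 1 and 35.4 in MS 2, with contacts of ENSSSCG00000048037, TTN and ENSSSCG00000048856.

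Across the 10 genes, TTN was listed at 7, ENSSSCG00000048037 at 6, ENSSSCG00000048856 at 5 and NEB at 4. These counts pool the 4 libraries. In LW 1, LW 2, MS 1 and MS 2, TTN was listed at 3, 5, 1 and 5 of the 10 genes, beside 12.3%, 11.9%, 22.2% and 18.5% of all genes. ENSSSCG00000048037 was listed at 2, 2, 3 and 1, beside 9.86%, 17.7%, 21.6% and 25.2%. ENSSSCG00000048856 was listed at 1, 2, 3 and 3, beside 3.38%, 4.93%, 7.09% and 11.8%. TTN and NEB are transcribed from chromosome 15, which carries CHRNA1, CHRND and CHRNG. Of the 1106 genes of that chromosome, TTN was listed at 28.8% to 39.0% and NEB at 2.71% to 10.9%. NEB was listed at junction genes in LW libraries only, and it was listed at 2.04% and 3.23% of all genes in LW and at 0.475% and 1.08% in MS.

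Among the other lists, RNA contacts of 3 of the 5 glycosylation genes (ALG2, GFPT1 and ALG14) were higher in MS by the rule, beside 8.28% of all genes tested, and none was higher in LW. Their adjusted p in limma was 0.223, 0.193 and 0.239. In LW 1, LW 2, MS 1 and MS 2, ALG2 had signals of 0, 9.64, 530 and 135. In the same order GFPT1 had 0, 0, 11.5 and 22.9, and ALG14 had 0, 0, 16.6 and 10.6. GMPPB was not called, but both its LW values lay above both MS values, at 1008, 1038, 28.4 and 633. The lists of postsynaptic partners, basal lamina and synaptic transcription genes had 27, 11 and 9 genes tested. In each of these lists 1 gene was higher in LW (DTNB, LAMB2 and ETV5) and 1 in MS (ANK3, COLQ and ETS2). COLQ, the collagen tail that anchors acetylcholinesterase in the synaptic cleft, had signals of 919 and 745 in MS and was listed at 0 in both LW libraries (limma adjusted p = 0.108). LAMB2, a laminin chain of the synaptic basal lamina, had 886 and 970 in LW and 30.6 and 13.6 in MS (limma adjusted p = 0.215). CHRNA10 was higher in LW among 10 tested neuronal nicotinic genes, and SNAP25 among 13 nerve terminal genes. Their signals in LW 1 and LW 2 were 9.84 and 4.86, and 9.02 and 5.12, with 0 in both MS libraries. PMP22 was higher in MS among 6 Schwann cell markers. MYLPF was higher in LW among 12 muscle fibre markers, and CSF1R and CD163 among 11 markers of other resident cells. Over all genes tested, 7.49% were higher in LW and 8.28% in MS. Adjusted p in limma for these genes ran from 0.162 (MYLPF) to 0.287 (CHRNA10).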

How the data were processed

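BL-HiChIP and GRID-seq lists of LW and MS muscle were read, 2 libraries per breed and assay. The 4 RNA-end samples of GRID-seq were not analysed here. For BL-HiChIP, the authors trimmed linkers with ChIA-PET2, mapped with BWA-MEM to Sscrofa11.1 and called loops with FitHiChIP in 5 kb bins. The deposited lists give each loop with a value read here as its FDR, a p-value corrected for multiple tests (all at most 0.01), since the lists have no header. For GRID-seq, the authors mapped with Bowtie2 and deposited, per RNA and 1 kb DNA bin, values read here as RNA read counts and a background-corrected signal, again without a header. Here −log10 FDR was summed per gene, with an FDR of 0 set to the smallest other value of the library, and signal was summed within 5 kb of gene ends. The score is not a count, so limma 3.58.1 (R 4.3.3) was run on log2(value + 1) after quantile normalization over genes with a value in at least 1 library. It was also run on simulated data, with less spread than between the real libraries and with changes larger than the rule's limits. That run cannot show how limma performs on data with the real spread. The planned edgeR test of member RNA reads was not run, since no member was listed. Loops depend on depth and on H3K27ac level, which the lists do not separate.

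Members and gene lists were chosen with earlier results of these data known. Genes named were the 10 members, far-anchor genes of loops in at least 3 libraries and of each strongest loop, the leading RNAs, list genes past the study's rule, the 2 of highest mean score per list, and the 3 nearest to CHRNB1. Other genes at loop anchors and the list genes at 0 were named after their values were seen. Alternatives were another pseudocount, normalization, window, FDR limit and filter, a replicate block, and leaving out each library. Some results that the rule would name are not reported here.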

Additional observations from a re-analysis of the deposited data

How the results depend on the processing

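Counts of genes past the study's rule moved by over 1.5 times under some settings. For loop score, 957 genes were higher in MS with a pseudocount of 0.1, and 862 were higher in LW without normalization, which also moved the median log2 fold change of all genes from 0.02 to 0.38. CHRND and CHRNE then stood at 2.29 and 2.71. The replicate block gave 696 genes higher in LW and 591 in MS for loop score, and 1167 and 1379 for RNA signal, and changed no call of a junction gene. Across genes, deviations of same-numbered libraries correlated at 0.354 for loop score and -0.0062 for RNA signal. The labels do not say what a number marks, and 2 pairs are too few to settle pairing. Leaving out 1 library at a time gave 413 to 883 genes higher in LW and 455 to 875 in MS for loop score, and 1338 to 3159 and 1573 to 2979 for RNA signal. A breed left with 1 library is assumed to vary like the other. The cause of these moves was not tested.

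Over the 10 genes, 87 of the loop score values under an alternative kept direction and side of the rule, 7 lost the call and 5 reversed. CHRND also lost its call with a pseudocount of 0.1 and an FDR limit of 0.001. Adjusted p in limma ran from 0.387 to 1 for CHRND, 0.325 to 0.98 for CHRNE and 0.0462 to 0.435 for CHRNA1 RNA signal, the lowest without MS 2, where 2434 genes had an adjusted p under 0.05. Leaving out 1 library moved loop score log2 fold changes from -0.70 to 1.81 for MUSK, -0.32 to 1.43 for CHRNA1 and -0.36 to 0.93 for DOK7. They turned negative without LW 2 for MUSK (-0.29), CHRNA1 (-0.12) and DOK7 (-0.36) and without MS 1 for MUSK (-0.70) and CHRNA1 (-0.32). Those of RNA signal ran from -0.92 to 0.02 for CHRND, -0.39 to 2.40 for CHRNG, -6.76 to 0.14 for RAPSN, -1.33 to 2.82 for DOK7, -6.45 to 1.02 for LRP4 and -5.19 to 0.46 for AGRN. They reversed without LW 1 for CHRNG and DOK7, without LW 2 for CHRND and LRP4, and without MS 1 for CHRND, RAPSN, LRP4 and AGRN. By the same rule DOK7 was called without LW 2 and AGRN without MS 2.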
